A study of Mus musculus with 6 samples.

Results

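Chromatin accessibility was examined at 9 genes of homeostatic microglia (Tmem119, Siglech, Fcrls, Gpr34, Olfml3, Sparc, Slc2a5, Crybb1 and Rtn4rl1) in microglia (MG) and in bone marrow derived macrophages (BMDM) from mouse brain tumours. The genes were chosen by name. Every distinct peak that the authors' deposited table annotates to one of them was taken, which gave 84 of 92864 peaks. Of these, 18 were of the promoter class, within 3 kb of an annotated transcription start site, and 66 were distal. The assay was ATAC-seq, in which the transposase Tn5 cuts accessible DNA and adds sequencing adapters to it. Both cell types came by flow sorting from tumours that the mouse glioma line SB28 had formed in the brains of mice with the labelled genotype WT, and each had 3 libraries. The MG gate held F4/80+ CD11b+ cells that were CD45lo and CD49dlo/-. The BMDM gate held F4/80+ CD11b+ cells that were CD45+ and CD49dhigh, and in both gates the cells were LY6Clo/- and LY6G-. The series text gives as its question how the metabolism of the cells bears on gene expression and on what they do. All libraries are of tumour-associated cells, and microglia of a brain without a tumour were not analysed here. The labels name neither the animals behind each library nor their age, so each p-value is set against the library-to-library spread alone, and part of that may be technical.

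Microglia settle in the brain during embryonic life and renew themselves there. Signals of the brain, among them TGF-beta, keep them in a homeostatic state with a set of genes that macrophages derived from blood monocytes express little or not at all. These genes are often used to tell these cell types apart, and homeostatic microglia lose part of their expression in injury and disease. Tmem119 encodes a transmembrane protein used as a marker of resident microglia. Siglech, Fcrls and Gpr34 encode surface receptors: a member of the Siglec family, a scavenger receptor related to Fc receptors, and a receptor for lysophosphatidylserine. Olfml3 and Sparc encode secreted proteins, an olfactomedin-like glycoprotein and a matricellular protein that is also made by astrocytes and endothelial cells. Slc2a5 encodes the fructose transporter GLUT5, Crybb1 a crystallin known from the eye lens, and Rtn4rl1 a receptor of the Nogo receptor family.

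Reads in peaks numbered 4910448 to 23601865 per library, and the median peak held 20 to 90 reads. A count of 3 reads, taken as the detection limit, was worth 1.64 normalized counts in MG 2 and 5.95 in BMDM 1. Such a limit reflects counting error alone, since PCR copies are not independent molecules. A normalized count is the number of reads in a peak divided by the library's size factor. The promoters of 7 measured microglial markers, 4 of them also among the 9 genes, summed to 1931 to 4855 normalized counts in MG and 1207 to 1543 in BMDM. Those of 12 monocyte and macrophage markers summed to 2156 to 2551 in MG and 3063 to 5679 in BMDM, with 0 of the 12 higher in MG and 7 lower. The lower ones were Ly6c2, Clec4e, Hp, F10, Itga4, Ms4a4c and Mgst1. Itga4 encodes CD49d, by which the gates were set apart, so its call is not independent of the sort. LY6C was a sort marker too, though low or absent in both gates. Of the 7 microglial markers 2 were higher in MG, Tmem119 and Sall1, and 0 lower, and no measured promoter of either list was at 0. Distal sums of 8 microglial markers overlapped between the groups, at 3094 to 5277 in MG and 2659 to 3471 in BMDM, with 0 called. Distal sums of 9 monocyte and macrophage markers did not overlap, at 3266 to 4220 in MG and 4991 to 9042 in BMDM, with 0 higher in MG and 2 lower. Some promoters of neural marker genes were higher in MG as well: 5 of 9 of the oligodendrocyte lineage (Olig1, Olig2, Sox10, Pdgfra and Cspg4), 2 of 6 of astrocytes and 2 of 6 of neurons, with 0 lower. For the promoter counts of all these lists the background was 9.16% higher in MG and 2.75% lower, over 15249 genes with a promoter sum. Those of the oligodendrocyte lineage summed to 1649 to 4347 in MG and 1171 to 1259 in BMDM, those of astrocytes to 906 to 2237 in MG and 548 to 672 in BMDM, and those of neurons to 1759.5 to 2479 in MG and 710.3 to 776 in BMDM. Single peaks of the neural lists went both ways. At oligodendrocyte lineage genes 3 of 75 were higher in MG and 4 lower, and at astrocyte genes 8 of 54 were higher and 3 lower. At neuronal genes 4 of 43 were higher and 0 lower. Over all peaks tested 1.54% were higher and 5.33% lower. Among 6 astrocyte distal sums Slc1a3 was higher in MG and Slc1a2 lower. Of 7 neuronal distal sums 1 was higher, Snap25, and of 8 of the oligodendrocyte lineage 1, Mog, with 0 lower in either list. For the distal counts of all these lists the background was 0.571% higher and 1.88% lower, over 13649 genes with a distal sum. Endothelial promoters summed to 962 to 1364 in MG and 792 to 1179 in BMDM, with 0 of 5 higher and 1, Pecam1, lower. In bulk libraries a change in the share of cells of a type and a change within each cell cannot be told apart.

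The DNA behind 4 of the promoter peaks is shown here because the results below turn on them: the Sparc and Olfml3 promoters rose in MG, while those of the receptor genes Fcrls and Siglech did not pass the test. Each line gives the 250 bases before the start site on the gene's strand, from RefSeq on GRCm38.p6, the assembly on which mm10 is built; 6 of the 9 genes had such a sequence in the table used. The windows of Olfml3, Fcrls and Siglech lie wholly within the promoter peak, and of the Sparc window 234 bases do. On GRCm38 they are chr11:55420081-55420330 (Sparc), chr3:103738002-103738251 (Olfml3) and chr3:87263525-87263774 (Fcrls), all on the minus strand, and chr7:55767934-55768183 (Siglech) on the plus strand. Capitals mark matches, on either strand, to 7 motifs searched.
Sparc: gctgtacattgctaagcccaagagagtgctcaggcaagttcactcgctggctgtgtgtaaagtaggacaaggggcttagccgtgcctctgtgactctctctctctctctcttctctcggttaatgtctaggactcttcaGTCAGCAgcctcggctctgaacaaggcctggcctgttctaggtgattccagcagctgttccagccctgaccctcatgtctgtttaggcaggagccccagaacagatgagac
Olfml3: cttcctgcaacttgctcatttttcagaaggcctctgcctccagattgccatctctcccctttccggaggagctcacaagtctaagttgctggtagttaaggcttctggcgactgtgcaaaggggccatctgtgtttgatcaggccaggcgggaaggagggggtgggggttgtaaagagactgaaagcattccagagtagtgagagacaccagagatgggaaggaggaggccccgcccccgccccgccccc
Fcrls: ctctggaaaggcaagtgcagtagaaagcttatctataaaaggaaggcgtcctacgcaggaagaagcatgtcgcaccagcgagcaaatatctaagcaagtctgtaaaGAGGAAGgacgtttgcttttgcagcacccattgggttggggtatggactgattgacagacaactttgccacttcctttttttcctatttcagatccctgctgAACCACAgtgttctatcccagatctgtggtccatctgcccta
Siglech: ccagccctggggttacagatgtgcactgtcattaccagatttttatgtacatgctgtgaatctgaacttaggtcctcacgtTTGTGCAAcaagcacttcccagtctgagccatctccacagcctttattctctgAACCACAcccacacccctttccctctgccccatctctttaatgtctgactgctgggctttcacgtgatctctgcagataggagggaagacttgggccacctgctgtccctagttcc
The Sparc window holds TGCTGAC, the core of a MAF recognition element, on the strand opposite to the gene. Of 32851 promoter windows of the same length 3.81% hold it. The Fcrls window holds GAGGAAG, a site of the ETS class to which PU.1 belongs (10.6% of windows), and TGTGGTT, a RUNX site, on the opposite strand (4.40%). The Siglech window holds the RUNX letters and TTGCNNAA, a C/EBP site (9.56%), both on the opposite strand. None of the matches overlap. The Olfml3 window held none of these letters, nor those searched for AP-1 (TGANTCA, 6.75%), IRF (2.98%) or MEF2 (3.20%). A match describes the letters only.

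At the promoters, summed per gene, 3 of the 9 genes were more accessible in MG and none was lower: Sparc, Tmem119 and Olfml3. Over all 15249 genes with a promoter sum, 9.16% were higher in MG and 2.75% lower (limma, Benjamini-Hochberg adjusted p under 0.05). The Sparc promoter had 283, 509 and 335 normalized counts in MG 1, 2 and 3, against 75.4, 76.4 and 109 in BMDM 1, 2 and 3. Its means were 376 ± 118 in MG and 86.8 ± 18.9 in BMDM (SD, n = 3 each), 4.33-fold higher in MG. The lowest MG library lay above the highest BMDM library, as it did for Tmem119 and Olfml3. On the log2 scale the difference, MG minus BMDM, was 1.76 ± 0.34 (SE) relative to the median gene (adjusted p = 1.43e-07). The median promoter sum was itself 0.31 higher in MG on that scale; differences are given relative to it or, for peaks and distal sums, to their own median, while p-values test the difference before this shift.

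The Tmem119 promoter had 323, 296 and 273 normalized counts in MG 1, 2 and 3, against 105, 88.1 and 114 in BMDM 1, 2 and 3, 2.90-fold higher in MG, with a relative log2 difference of 1.22 ± 0.34 (adjusted p = 0.000206). Relative to its mean it varied least of the 9 within MG, at 297 ± 24.9 (SD, n = 3). For Olfml3 the promoter sum was 711, 984 and 732 normalized counts in MG 1, 2 and 3, against 321, 311 and 228 in BMDM 1, 2 and 3, 2.82-fold higher in MG, with a relative log2 difference of 1.18 ± 0.32 (adjusted p = 0.000161). With MG 1 as the lone MG library the Olfml3 difference was 0.83 and did not pass (adjusted p = 0.166, over all alternatives 2.59e-06 to 0.166). In the fit of promoter sums to all libraries the estimate of the spread came almost wholly from the trend shared by all promoters, with median total degrees of freedom of 19089.7 against 10.1 for single peaks. Without that trend, where the degrees of freedom were 14.4, the same 3 genes passed, at larger adjusted p-values. These were 0.00598 for Sparc, 0.0132 for Tmem119 and 0.0175 for Olfml3. With library totals in place of the size factors they were 0.0238, 0.0300 and 0.00697 in the same order.

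The other 6 promoter sums did not pass. The fructose transporter gene Slc2a5 had 1035, 822 and 777 normalized counts in MG 1, 2 and 3, against 643, 613 and 386 in BMDM 1, 2 and 3, and Rtn4rl1 had 870.2, 543 and 575 normalized counts in MG 1, 2 and 3, against 373, 471 and 408 in BMDM 1, 2 and 3. Siglech had 230.1, 118 and 149 normalized counts in MG 1, 2 and 3, against 97.2, 80.3 and 107 in BMDM 1, 2 and 3. In these 3 genes every MG library lay above every BMDM library, so that 6 of the 9 promoter sums were without overlap in this direction, as were 23.0% of all genes. In 0 of the 9 did every MG library lie below every BMDM library, against 5.36% of all genes. The relative log2 differences were 0.39 ± 0.34 for Slc2a5, 0.33 ± 0.33 for Rtn4rl1 and 0.44 ± 0.36 for Siglech (adjusted p = 0.176, 0.214 and 0.174). Slc2a5 passed with library totals (adjusted p = 0.0326) and with cyclic loess (0.045), among alternatives that ranged from 0.0326 to 0.774.

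The groups overlapped at the promoters of Fcrls, Crybb1 and Gpr34. Fcrls had 208, 73.2 and 133 normalized counts in MG 1, 2 and 3, against 53.6, 67.3 and 83.3 in BMDM 1, 2 and 3, so that MG 2 lay within the BMDM range (relative log2 difference 0.59 ± 0.38, adjusted p = 0.11). Without MG 2 the Fcrls promoter passed (adjusted p = 0.0112, over all alternatives 0.0112 to 0.527). Crybb1 had 225, 135 and 178 normalized counts in MG 1, 2 and 3, against 125, 147 and 65.2 in BMDM 1, 2 and 3 (0.40 ± 0.35, adjusted p = 0.19). Gpr34, with the smallest sum, had 73.0, 32.3 and 45.7 normalized counts in MG 1, 2 and 3, against 41.7, 39.5 and 34.4 in BMDM 1, 2 and 3 (-0.011 ± 0.49, adjusted p = 0.748). In all 3 genes MG 1 was the highest of the 6 libraries. The Gpr34 promoter lies within the body of another gene, Cask, on the same stretch of chromosome X.

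**Figure D1:**
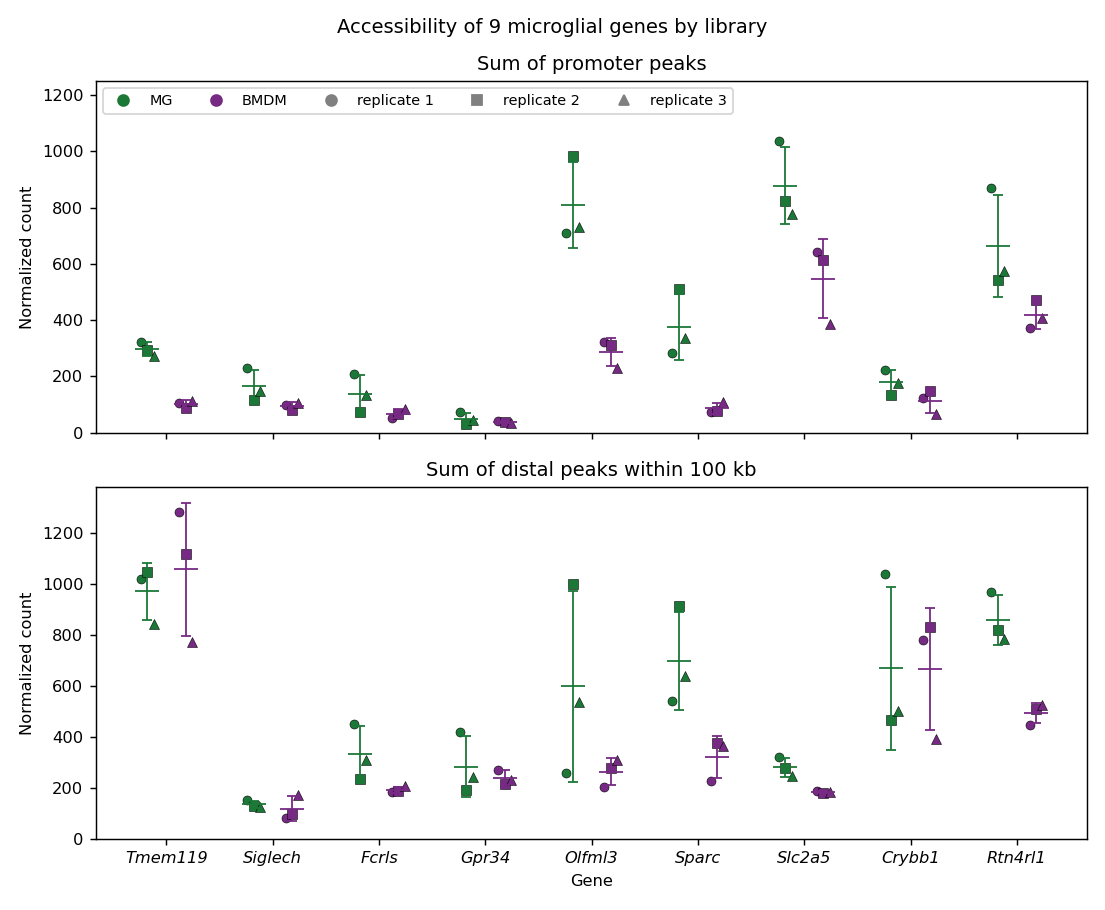
Normalized count (vertical axis) of the summed promoter peaks (top) and the summed distal peaks within 100 kb (bottom) of each gene, with MG in green left of BMDM in purple, marker shapes for the replicate number, and horizontal lines with bars for mean ± SD (n = 3). At the promoters of Tmem119, Olfml3, Sparc, Siglech, Slc2a5 and Rtn4rl1 all MG points lie above all BMDM points. The distal sums of Tmem119, Siglech, Gpr34, Olfml3 and Crybb1 overlap.

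Set against peak length, the promoters of MG ranked from Tmem119, at 318 ± 26.7 normalized counts per kb, through Olfml3 (281 ± 52.7), Crybb1 (257 ± 64.2), Rtn4rl1 (244 ± 66.2), Slc2a5 (223 ± 34.9), Sparc (176 ± 55.4), Fcrls (156 ± 76.2) and Gpr34 (109 ± 45.0) to Siglech (107 ± 37.4; SD, n = 3 each). All neighbours in this order overlapped. In BMDM the order was Crybb1 (161 ± 60.7), Rtn4rl1 (153 ± 18.2), Slc2a5 (139 ± 35.6), Tmem119 (109.7 ± 14.2), Olfml3 (99.5 ± 17.7), Gpr34 (83.6 ± 8.06), Fcrls (76.9 ± 16.8), Siglech (61.2 ± 8.69) and Sparc (40.6 ± 8.87). There Sparc alone stood below its neighbour without overlap. In BMDM all 9 promoter sums were above the detection limit in every library. The lowest, 34.4 normalized counts of Gpr34 in BMDM 3, compares with the 5.43 that 3 reads were worth in that library. Counts above this limit need not be a called peak. Of the 18 promoter peaks 8, 15 and 1 were in the authors' peak lists of BMDM 1, 2 and 3. Of all peaks, promoter and distal, 34.7%, 54.5% and 17.9% were. The Sparc start site peak was in no BMDM list.

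Away from the promoters no gene passed. Of the 9 distal sums 0 were called in either direction by limma (4 had an unadjusted p under 0.05), against a background of 0.571% higher and 1.88% lower over 13649 genes. Limma-voom called 0 of the 13649 distal sums (0.0% in each direction), with 4 of the 9 at an unadjusted p under 0.05. The share of all genes at an unadjusted p under 0.05 was not counted in either fit. Sparc had 543, 913 and 641 normalized counts in MG 1, 2 and 3, against 226, 375 and 366 in BMDM 1, 2 and 3 (relative log2 difference 1.01 ± 0.30, adjusted p = 0.0787). Rtn4rl1 had 969, 822 and 785 normalized counts in MG 1, 2 and 3, against 448, 510.2 and 525 in BMDM 1, 2 and 3 (0.68 ± 0.22, adjusted p = 0.085). These 2 genes, Fcrls and Slc2a5 had no overlap between the groups, with MG higher in each, as in 13.7% of all genes; 0 of the 9 were apart with MG lower, against 14.8%. Fcrls had 452, 236 and 311 normalized counts in MG 1, 2 and 3, against 182, 189.7 and 207 in BMDM 1, 2 and 3 (0.63, adjusted p = 0.166), and Slc2a5 had 321, 277 and 246 normalized counts in MG 1, 2 and 3, against 188, 178 and 183 in BMDM 1, 2 and 3 (0.50, adjusted p = 0.16).

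Olfml3 had distal sums of 258, 999.8 and 538 normalized counts in MG 1, 2 and 3, against 204, 279 and 309.8 in BMDM 1, 2 and 3, a wide spread within MG (0.88, adjusted p = 0.226). Without MG 1, a fit that leaned on the shared variance, the distal sums of Olfml3 and Sparc passed (adjusted p = 0.0015 and 0.00466). For Olfml3 the adjusted p ranged from 0.0015 to 0.99 over all alternatives and for Sparc from 0.00466 to 0.27. With MG 1 as the lone MG library Fcrls passed (0.039, range 0.039 to 0.409). In Siglech, Gpr34, Crybb1 and Tmem119 the groups overlapped, with relative differences of 0.15, 0.06, -0.13 and -0.21. The Tmem119 distal peaks together had 1022, 1050.1 and 844 normalized counts in MG 1, 2 and 3, against 1283, 1120.2 and 774 in BMDM 1, 2 and 3.

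Among single peaks, 6 of the 84 were higher in MG and 2 lower. All 84 passed the filter on low values, a mean normalized count of at least 10. Over all 87944 peaks tested 1.54% were higher in MG and 5.33% lower. The 6 higher peaks lay at Sparc (2), Olfml3 (2), Tmem119 (1) and Rtn4rl1 (1), and the lower ones at Tmem119 (1) and Crybb1 (1). Of the 18 promoter peaks 4 were higher and 0 lower (2.64% and 3.04% of all promoter peaks), and of the 66 distal peaks 2 were higher and 2 lower (1.04% and 6.36% of all distal peaks). The median relative log2 difference was 0.76 over the promoter peaks of these genes and 0.14 over all promoter peaks. It was 0.64 over their distal peaks and -0.11 over all distal peaks. In 70 of the 84 the relative difference was positive, against 43972 of all 87944 peaks, a share fixed by the use of the median. It was positive at 17 of the 18 promoter peaks (16766 of all 27255) and at 53 of the 66 distal peaks (27206 of all 60689).

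Every MG library exceeded every BMDM library at 31 of the 84 peaks and lay below at 2, against 12.9% and 17.0% of all peaks. The first held at 12 of the 18 promoter peaks (19.0% of all promoter peaks) and at 19 of the 66 distal peaks (10.1% of all distal peaks). The reverse held at 0 promoter peaks (9.77% of all) and 2 distal peaks (20.3% of all). In the authors' deposited table, whose fold changes run BMDM minus MG, 13 of the 84 peaks were higher in MG and 2 lower at an adjusted p under 0.05 (5.38% and 9.06% of all peaks). The number of calls moved with single libraries over the whole table. Without MG 3, BMDM 1 or BMDM 2, limma called 0 of all 87944 peaks (0.0% in each direction), and so 0 of the 84 (21, 20 and 18 at an unadjusted p under 0.05). Without BMDM 3 it called 2 of the 84 higher and 2 lower in MG, against 0.47% and 2.31% of all peaks. Without MG 1 it called 22 higher and 3 lower, against 12.8% and 12.1% of all peaks, in a fit with median total degrees of freedom of 214. With all libraries, limma-voom called 0 of the 87944 peaks, and 28 of the 84 had an unadjusted p under 0.05 in it. Its lowest adjusted p over all peaks was 0.0505, and at the Tmem119 promoter its adjusted p was 0.0505. In the limma fit to all libraries 32 of the 84 and 21915 of all 87944 peaks had an unadjusted p under 0.05. For the other fits the share over all peaks was not counted.

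**Figure D2:**
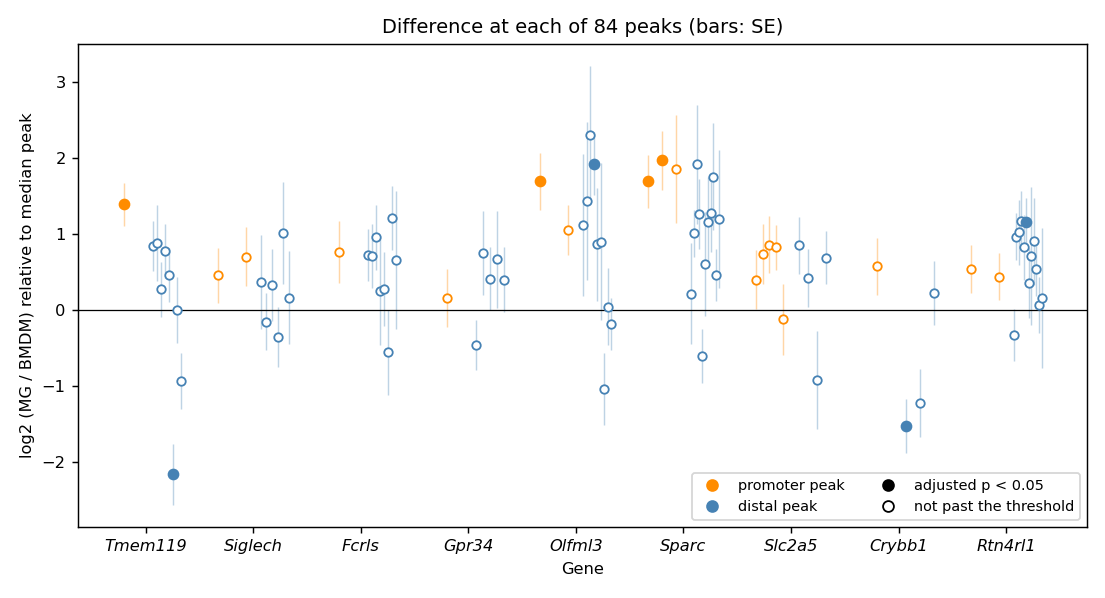
Log2 difference of each of the 84 peaks, MG over BMDM relative to the median peak (vertical axis), by gene, with promoter peaks in orange left of distal peaks in blue; filled points passed the threshold and bars are the SE. The filled points above 0 belong to Tmem119, Olfml3, Sparc and Rtn4rl1, and those below 0 to Tmem119 and Crybb1.

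Tmem119 held peaks that went in opposite directions. Its promoter peak, over the start site at chromosome 5, 113799971 to 113800904 (mm10), had the values given above for the promoter sum and a relative log2 difference of 1.40 ± 0.28 in the fit of single peaks (adjusted p = 0.026). The next peak upstream, intergenic and at -4670 bp from the start site (chromosome 5, 113805186 to 113805778), had 73.8, 73.8 and 43.7 normalized counts in MG 1, 2 and 3, against 413, 253 and 159 in BMDM 1, 2 and 3. It was lower in MG, with no overlap between the groups, a relative log2 difference of -2.16 ± 0.40 and 4.31-fold more counts in BMDM (adjusted p = 0.0281). In the authors' deposited table, too, the 2 peaks are past the threshold in opposite directions (adjusted p = 0.000203 for the upstream peak and 0.000372 for the promoter peak). The nearest other gene to the upstream peak is Selplg, at 12020 bp, which encodes the selectin ligand PSGL-1.

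Further upstream, the peak at chromosome 5, 113812022 to 113813019 had the highest mean of the distal Tmem119 peaks. It had 403, 168 and 225 normalized counts in MG 1, 2 and 3, against 269.8, 324 and 130.4 in BMDM 1, 2 and 3 (0.0048 ± 0.44, adjusted p = 0.875), with overlapping groups. The peak beyond it, at chromosome 5, 113813550 to 113814896, had 102, 243 and 160.4 normalized counts in MG 1, 2 and 3, against 289.6, 327 and 219 in BMDM 1, 2 and 3 (-0.93 ± 0.37, adjusted p = 0.217). Both lie nearer to Selplg, at 4779 and 2902 bp, than to Tmem119. On the other side of the promoter, the 5 peaks at 3391 to 12322 bp in the direction of transcription had relative differences of 0.27 to 0.89, none past the threshold.

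**Figure D3:**
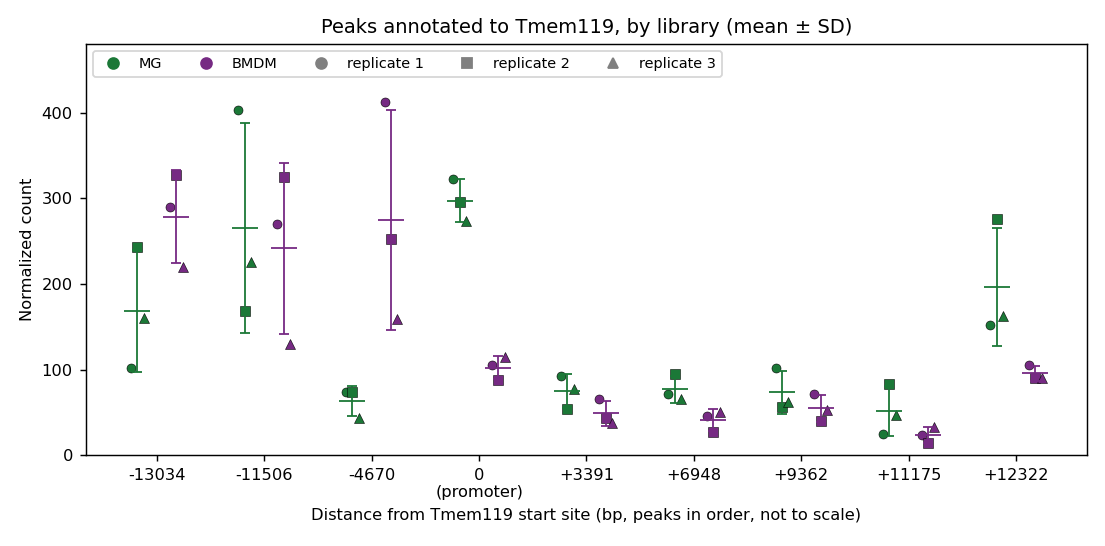
Normalized count (vertical axis) of the 9 peaks annotated to Tmem119 in order of distance from its start site, MG in green left of BMDM in purple, with marker shapes for the replicate number and mean ± SD (n = 3). All MG points lie above all BMDM points at the promoter (273 to 323 against 88.1 to 114), and all lie below at -4670 bp (43.7 to 73.8 against 159 to 413).

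The test of promoter against distal accessibility within a gene asked whether the 2 kinds of peak differ in their change. It compared log2 promoter sum minus log2 distal sum between the groups, a measure in which the scaling of libraries cancels. Tmem119 was the only one of the 9 genes to pass (background 3.83% higher and 0.432% lower of 10656 genes). The log2 ratio was -1.66, -1.82 and -1.62 in MG 1, 2 and 3, against -3.60, -3.65 and -2.75 in BMDM 1, 2 and 3. The promoter held a larger part of the counts of the locus in every MG library than in any BMDM library. The mean log2 difference was 1.63 ± 0.30 (adjusted p = 0.0356). Before the shift the Tmem119 promoter sum differed by 1.53 and its distal sum by -0.099. The difference was thus nearly all that of the promoter, reported above, and is not separate from it. The distal sum also holds the 2 upstream peaks that lie nearer to Selplg. Against the median gene, which itself stood at 0.24, the adjusted p was 0.0734. It was 0.206 without MG 3 and 0.0908, 0.163 and 0.0889 without BMDM 1, 2 or 3, fits in which 0 of the 10656 genes passed, and over all alternatives ran from 0.0281 to 0.206. Sparc and Crybb1 were without overlap too but did not pass: less the median, they stood at 0.72 and 0.50, with adjusted p = 0.0997 and 0.175. The other 6 genes overlapped, between -0.39 (Rtn4rl1) and 0.26 (Olfml3).

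None of the 8 Siglech, 9 Fcrls and 6 Gpr34 peaks passed in limma, while limma-voom called no peak of any gene. At an unadjusted p under 0.05 in limma there were 0, 4 and 0, where 21915 of all 87944 peaks tested were under it. At the Siglech start site (chromosome 7, 55767891 to 55768773) the peak had 176, 78.7 and 105 normalized counts in MG 1, 2 and 3, against 75.4, 44.0 and 74.3 in BMDM 1, 2 and 3 (0.71 ± 0.39, adjusted p = 0.21), and MG 2 was only just above BMDM 1. The distal Siglech peak with the highest mean, -22911 bp from the start site (chromosome 7, 55744148 to 55745267), had 22.2, 28.4 and 28.2 normalized counts in MG 1, 2 and 3, against 21.8, 31.1 and 41.7 in BMDM 1, 2 and 3 (-0.35 ± 0.40, adjusted p = 0.777). All 6 distal Siglech peaks overlapped between the groups. The Fcrls start site peak (chromosome 3, 87263215 to 87264099) has the values of its promoter sum. The Fcrls distal peak with the highest mean, past the 3′ end at 19395 bp (chromosome 3, 87243589 to 87244204), had 123, 66.1 and 83.6 normalized counts in MG 1, 2 and 3, against 45.6, 53.1 and 45.3 in BMDM 1, 2 and 3 (0.73 ± 0.34, adjusted p = 0.144). Its groups did not overlap, which held for 4 of the 8 distal Fcrls peaks, all higher in MG. Gpr34 sits inside Cask, and 4 of its 5 distal peaks lie in Cask alone, so that their assignment to Gpr34 is by distance only. The one with the highest mean, at chromosome X, 13599356 to 13600539 in an exon of Cask, had 131, 82.0 and 100.1 normalized counts in MG 1, 2 and 3, against 153, 142 and 97.8 in BMDM 1, 2 and 3 (-0.46 ± 0.33, adjusted p = 0.583). At the Gpr34 start site (chromosome X, 13631721 to 13632181) the peak has the values of the promoter sum, and in all 6 Gpr34 peaks MG 1 was the highest MG library.

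The genes of the secreted proteins held 4 of the 6 peaks that were higher in MG. At Sparc these were the start site peak and one further into the gene. The start site peak (chromosome 11, 55419563 to 55420314) had 78.5, 173 and 125 normalized counts in MG 1, 2 and 3, against 29.8, 20.1 and 32.6 in BMDM 1, 2 and 3 (1.97 ± 0.38, adjusted p = 0.026). The peak 1314 bp downstream (chromosome 11, 55417904 to 55418584) had 181, 129.5 and 102 normalized counts in MG 1, 2 and 3, against 27.8, 44.7 and 39.9 in BMDM 1, 2 and 3 (1.70 ± 0.35, adjusted p = 0.0268). The groups stood apart at both, but the highest MG library was MG 2 at the start site and MG 1 further in. With MG 1 as the lone MG library the start site peak did not pass (adjusted p = 0.0724, over all alternatives 1.29e-06 to 0.186). The distal peak with the highest mean, past the 3′ end (chromosome 11, 55386144 to 55387101), had 201, 267 and 209.9 normalized counts in MG 1, 2 and 3, against 85.3, 131 and 90.6 in BMDM 1, 2 and 3 and no overlap (1.02 ± 0.31, adjusted p = 0.0523).

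At Olfml3 the larger promoter peak, over the start site (chromosome 3, 103737374 to 103738553), had 495, 403 and 353 normalized counts in MG 1, 2 and 3, against 216, 218 and 123 in BMDM 1, 2 and 3. It had no overlap between the groups but missed the threshold (1.06 ± 0.33, adjusted p = 0.0579). The second promoter peak, 2440 bp into the gene (chromosome 3, 103733826 to 103735528), had 216, 581 and 379 normalized counts in MG 1, 2 and 3, against 105, 93.2 and 105 in BMDM 1, 2 and 3, and was higher in MG (1.70 ± 0.38, adjusted p = 0.0292). MG 2 was the highest library there, and with MG 1 as the lone MG library the relative difference was 1.06 and did not pass (adjusted p = 0.222, over all alternatives 2.82e-06 to 0.222). A distal peak at 47129 bp, past the 3′ end (chromosome 3, 103690417 to 103690839), had 71.4, 43.7 and 66.1 normalized counts in MG 1, 2 and 3, against 13.9, 18.8 and 9.06 in BMDM 1, 2 and 3 (1.93 ± 0.42, adjusted p = 0.0287). This peak was highest in MG 1, whereas the peaks on either side of it, at 53734 and 41878 bp, were highest in MG 2. Its nearest other gene is the synaptotagmin gene Syt6, at 44850 bp. The distal peak with the highest mean, at 9466 bp (chromosome 3, 103727612 to 103728502), had 117, 113 and 79.7 normalized counts in MG 1, 2 and 3, against 101, 149.6 and 76.1 in BMDM 1, 2 and 3, with overlapping groups (-0.18 ± 0.35, adjusted p = 0.953).

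MG 1 and MG 2 stood far apart at some peaks of these genes. At 11 of the 84 peaks MG 2 had over 4 times the counts of MG 1 (a threshold set after the values were seen), 7.30 to 21.1 times as many. Of these 5 belong to Olfml3, 4 to Sparc and 1 each to Rtn4rl1 and Slc2a5. The one with the highest MG 2 count, at Olfml3, 75559 bp from its start site (chromosome 3, 103661116 to 103662409), had 11.9, 271 and 121 normalized counts in MG 1, 2 and 3, against 19.8, 24.0 and 59.8 in BMDM 1, 2 and 3 (1.12 ± 0.93, adjusted p = 0.449). At Sparc the peak at chromosome 11, 55423590 to 55424293, before the start of another annotated transcript, had 23.8, 207 and 108 normalized counts in MG 1, 2 and 3, against 17.9, 11.7 and 36.2 in BMDM 1, 2 and 3 (1.86 ± 0.71, adjusted p = 0.117). MG 2 was the highest library at both. In all 11, MG 1 was no higher than the highest BMDM library. None of the 11 passed in limma (adjusted p 0.117 to 0.875), while 4 are past the threshold in the authors' deposited table. In limma 4 of the 11 had an unadjusted p under 0.05, where 21915 of all 87944 peaks had. The share of such peaks was 13.1% here and 16.0% over all peaks tested. It was 44.0% at genes of the oligodendrocyte lineage, 41.9% at neuronal genes and 24.1% at astrocyte genes, against 1.25% at the microglial markers. Promoters of the neural lists were also highest in MG 2 (the sums given above), and their part in the MG counts of Sparc and Olfml3 was not tested.

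Over the 84 peaks the highest MG library was MG 1 at 48, MG 2 at 33 and MG 3 at 3. MG 1 was highest at 57.1% of them and at 46.3% of all peaks tested. For MG 2 these shares were 39.3% and 45.2%. The genes differed in this: MG 1 was highest at 8 of 9 Fcrls peaks and 6 of 6 Gpr34 peaks, whereas MG 2 was highest at 8 of 11 Olfml3 peaks and 9 of 14 Sparc peaks. Across all peaks, log2 values of MG 1 correlated with those of MG 2 at 0.756, with those of MG 3 at 0.892 and with those of the BMDM libraries at 0.839 to 0.860.

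**Figure D4:**
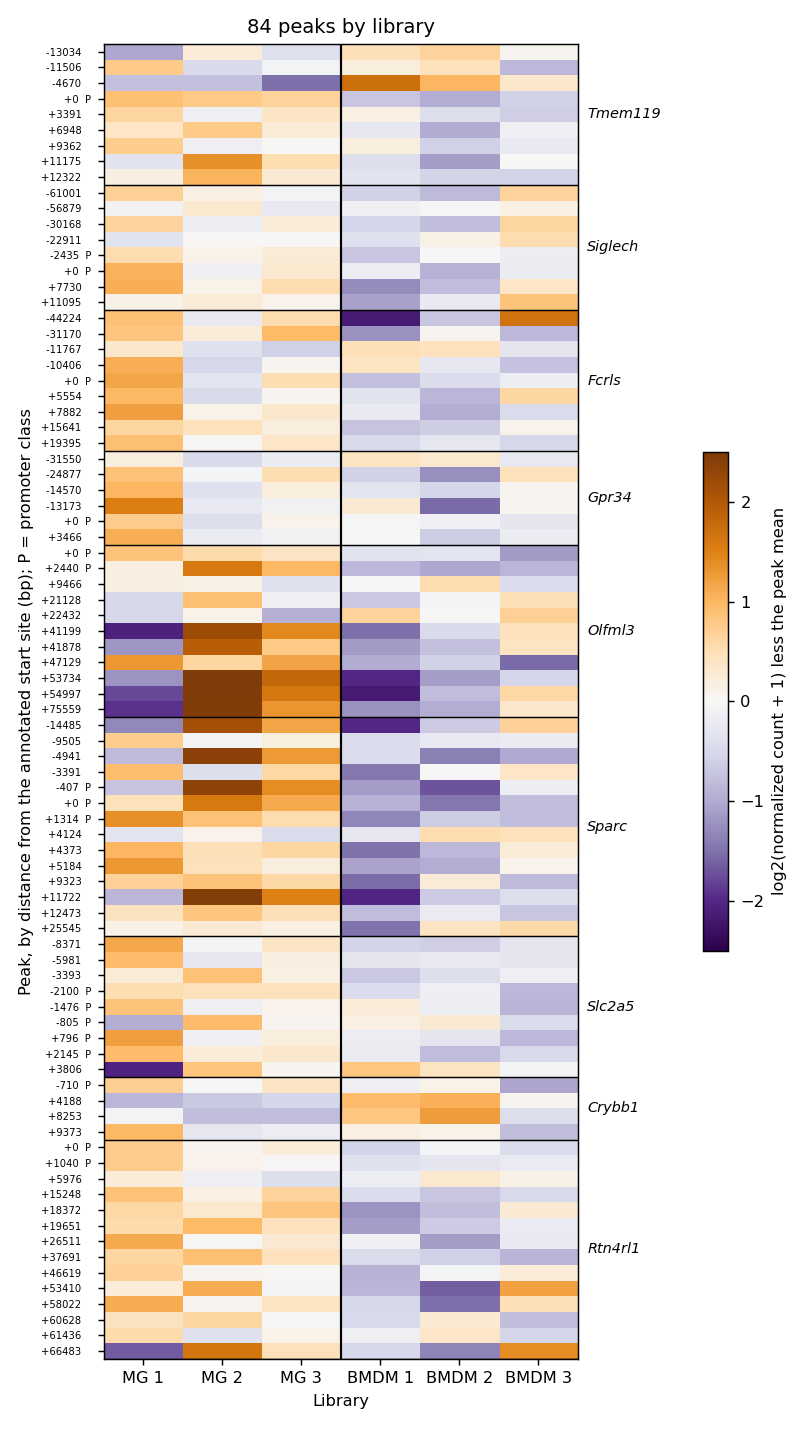
Each row is one of the 84 peaks, ordered by gene and by distance from the annotated start site (P marks the promoter class), and each column a library, MG left of BMDM; colour is log2(normalized count + 1) less the peak's mean over the 6 libraries. Promoter rows are mostly orange in MG, the rows of Tmem119 at -4670 and Crybb1 at +4188 are orange in BMDM, and several Olfml3 and Sparc rows are darkest in MG 2 and purple in MG 1.

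Among the other 3 genes, 1 Rtn4rl1 peak rose in MG and 1 Crybb1 peak fell. The Rtn4rl1 peak lies in its only annotated intron, 37691 bp from the start site (chromosome 11, 75231474 to 75232352). It had 109, 134 and 97.2 normalized counts in MG 1, 2 and 3, against 51.6, 46.6 and 38.0 in BMDM 1, 2 and 3, a relative log2 difference of 1.17 ± 0.31 (adjusted p = 0.0391). Its call was the least stable of the 8, lost in 8 of 20 alternatives, over which the adjusted p ranged from 0.00903 to 0.188. The distal Rtn4rl1 peak with the highest mean, in the same intron (chromosome 11, 75209031 to 75209918), had 262, 159 and 226 normalized counts in MG 1, 2 and 3, against 105, 86.8 and 101 in BMDM 1, 2 and 3. Its groups were apart but it missed the threshold (0.97 ± 0.31, adjusted p = 0.0585). The start site peak (chromosome 11, 75192736 to 75194203) had 536, 332 and 373 normalized counts in MG 1, 2 and 3, against 218, 310.2 and 236 in BMDM 1, 2 and 3 (0.55 ± 0.32, adjusted p = 0.213).

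The Crybb1 peak that fell lies in intron 3 of 5, 4188 bp from the start site (chromosome 5, 112260062 to 112260728). It had 31.7, 36.1 and 39.8 normalized counts in MG 1, 2 and 3, against 113, 124 and 61.6 in BMDM 1, 2 and 3, 2.77-fold more in BMDM, with no overlap (-1.52 ± 0.36, adjusted p = 0.0481). Its call was lost in 7 of 20 alternatives, among them the deposited variance-stabilized values, no filter on low values and no variance trend, and the adjusted p ranged from 0.0105 to 0.226 over the 20. Cryba4, another crystallin gene, overlaps this site in RefSeq, as it does the Crybb1 promoter peak. The neighbouring peak in intron 4, at 8253 bp, was the only one of the 84 in no MG peak list and in a BMDM list, with 84.1, 50.3 and 50.5 normalized counts in MG 1, 2 and 3, against 155, 208 and 65.2 in BMDM 1, 2 and 3 (-1.22 ± 0.45, adjusted p = 0.165). The highest Crybb1 peak, also in intron 4 (chromosome 5, 112265247 to 112266651), had 924, 381 and 412 normalized counts in MG 1, 2 and 3, against 512, 499 and 266 in BMDM 1, 2 and 3, the highest mean of all 84, and overlapping groups (0.23 ± 0.42, adjusted p = 0.639). The promoter peak of Crybb1, at chromosome 5, 112254409 to 112255105, had the values of the promoter sum and a relative difference of 0.58 in the fit of single peaks (adjusted p = 0.275).

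Slc2a5 had 5 promoter peaks, at more than one annotated start site, and none passed. Of all 9 Slc2a5 peaks 5 had an unadjusted p under 0.05 in limma, where 21915 of all 87944 peaks had. Of the promoter peaks 2 are described here. The one with the highest mean (chromosome 4, 150117022 to 150117807) had 375, 189.7 and 223 normalized counts in MG 1, 2 and 3, against 244, 187 and 112 in BMDM 1, 2 and 3 (0.40 ± 0.39, adjusted p = 0.431). The one nearest to a start site (chromosome 4, 150120079 to 150121014) had 271, 108 and 134 normalized counts in MG 1, 2 and 3, against 103, 93.9 and 63.4 in BMDM 1, 2 and 3 (0.75 ± 0.40, adjusted p = 0.2). Groups stood apart at the second of these and overlapped at the first. The distal peak with the highest mean (chromosome 4, 150110230 to 150110912) had 151, 65.0 and 88.4 normalized counts in MG 1, 2 and 3, against 45.6, 43.4 and 54.3 in BMDM 1, 2 and 3, with MG higher throughout (0.85 ± 0.37, adjusted p = 0.129).

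A list of 40 other genes of microglial identity gave a measure of how the 9 compare with the wider programme. Of its 38 measured promoter sums 10 were higher in MG and 0 lower, and of its 38 distal sums 1 was higher, Nav3, and 0 lower (the backgrounds are those given for all genes above). The median relative log2 difference of the promoters was 0.23, and over the 9 genes 0.44. The higher promoters included those of Mertk, Gas6 and Pros1, which encode a receptor for the uptake of dying cells and its bridging ligands. Mertk had 1215, 838 and 893 normalized counts in MG 1, 2 and 3, against 553, 485 and 337 in BMDM 1, 2 and 3 (0.79 ± 0.34, adjusted p = 0.0127). Pros1 differed by 0.73 (adjusted p = 0.0152) and Gas6 by 0.65 (adjusted p = 0.0344). The others were the transcription factor genes Sall1 and Sall3, the complement genes C1qa and C1qb, Slco2b1, Arhgap5 and Nav3. At C1qa and C1qb the groups overlapped. Nav3 was highest in MG 2, with 217, 864 and 485 normalized counts in MG 1, 2 and 3. Among the promoters that did not pass in limma were P2ry12 (0.50, adjusted p = 0.116), Cx3cr1 (0.35, 0.194) and Csf1r (-0.064, 0.744). Lowest relative to the median gene were Cd33 (-0.79, 0.467) and Selplg (-0.73, 0.481).

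By the shape of their promoter sums over the 6 libraries, the genes most like the mean of the 9 were Camk2n1 (r = 0.999), Dnajc18 (0.993), Ache (0.992), Nfix (0.992) and Arhgef40 (0.992), among 7254 genes compared. They are the best of many over 6 libraries that share the group difference, so r is a description only. Camk2n1, an inhibitor of CaM kinase II, had 996, 624 and 719 normalized counts in MG 1, 2 and 3, against 299.5, 281 and 255 in BMDM 1, 2 and 3. MG 1 was the highest library in each of the 5 genes, as it was in the mean of the 9.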

How the data were processed

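The 9 genes, the lists and the tests were chosen with earlier results of these data known. The submitters' processing notes name DESeq2 1.36.0, ChIPseeker 1.32.1, MACS2 2.1.1.20160309, Bowtie2 2.4.1 and cutadapt 1.8.1, with mm10. Settings, duplicate removal and any correction of read ends for Tn5 have not been given in the sources used here. The authors deposited 1 table whose library columns hold log2 values, stabilized for variance, with a mean normalized signal, log2 fold changes (BMDM minus MG) and p-values, per the file headers. The authors also deposited 1 peak list per library, in the column order of MACS2, with a fold enrichment, −log10 p and −log10 q for each peak, used here only to say whether a peak was listed. Of 93084 lines 155 repeated a peak and 65 peaks had no annotation; 8 further columns of values matched no sample and were not used.

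Inverting the stabilization gave normalized counts whose mean was off from the deposited one by at most 2.4e-06 of its value, and multiplying by the size factors gave whole numbers of reads, to within 0.02, in at least 99.9989% of peaks. The tests had been planned for counts or normalized values; limma 3.58.1 (R 4.3.3) with a variance trend was fitted to log2(normalized count + 1) of all peaks, or sums per gene of promoter peaks or of distal peaks within 100 kb, with a mean of at least 10, and adjusted by Benjamini-Hochberg over all of them, threshold 0.05. On this scale changes of low peaks are understated. The code was tested on simulated data. Named per gene are the promoter peak and the distal peak with the highest mean, the peak nearest to the start site and every peak past the threshold; other peaks were named after their values were seen. Gene symbols, classes and coordinates are those of the deposited table; neighbouring genes are from RefSeq (GRCm38.p6).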

Additional observations from a re-analysis of the deposited data

How the results depend on the processing

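The count of 84 peaks called, 8 in the fit reported, was within 1.5 times of that with the deposited variance-stabilized values, TMM factors, library totals, cyclic loess, either other pseudocount, either other filter, robust moderation, no variance trend, without MG 2 and 3 together and against the median peak. It was 0 with limma-voom, which called 0 of all 87944 peaks, and ran from 0 to 25 when single libraries were left out, in fits that called from 0 to 21881 of all peaks. The 3 promoter calls held in number in every alternative run, with 3 or 4. The distal count, 0, ran from 0 to 2 when single libraries were left out and was 1 without MG 2 and 3 together. The promoter minus distal count, 1, ran from 0 to 1 with single libraries left out, and was 0 without MG 2 and 3 together and 0 against the median gene; these fits called 80 and 7 of all 10656 genes. Among 35 single values the direction and the side of the threshold held in 643 of 718 alternatives, the threshold was lost in 51 and newly passed in 8, and the direction turned in 16, all of them in values that had not passed. Those 16, as log2 differences before the shift, were -0.00038 for the Gpr34 promoter without MG 1; for distal sums 0.055 (Tmem119 without BMDM 1), -0.015 (Olfml3 without MG 2 and 3), 0.19, 0.14, 0.13, 0.17 and 0.71 (Crybb1 without MG 2, MG 3, BMDM 1, BMDM 2, and MG 2 and 3), -0.019 and -0.15 (Gpr34 with library totals and without MG 1); and for promoter minus distal -0.083 and -0.11 (Olfml3 and Slc2a5 with promoters of 1 kb), -0.056 and -0.16 (Fcrls and Slc2a5 with loess), -0.13 (Slc2a5 without BMDM 3) and 0.093 (Rtn4rl1 without MG 2 and 3). Over the single libraries left out these values ran, lowest to highest, from -0.00038 to 0.58 (Gpr34 promoter), -0.31 to 0.055, -0.39 to 0.19 and -0.15 to 0.41 (Tmem119, Crybb1 and Gpr34 distal) and -0.13 to 0.22 (Slc2a5 promoter minus distal). Fits with fewer libraries have fewer residual degrees of freedom, and a lone library is assumed to vary like the other group. The cause of the other changes was not tested.

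Libraries with the same replicate number deviated from their group means with correlations of 0.435, -0.062 and 0.360 across peaks for numbers 1, 2 and 3, and MG 2 correlated best with BMDM 3 (0.422), so the numbers were not taken as pairs. With a replicate block 20 of the 84 peaks were called, 18 higher and 2 lower in MG, where 5.93% of all peaks were higher and 10.5% lower. With the block the distal sum of Sparc passed too (1 call), and the counts of promoter sums (3) and of promoter minus distal (1) did not change. The edgeR alternative on recovered reads was not run; limma-voom was fitted to those reads. With 4910448 reads in peaks BMDM 3 was the shallowest library and placed 5 of the 84 peaks in its own peak list, so that its low values rest on few reads. The alternative against the median was chosen after seeing the data.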

Other observations

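The authors also deposited a peak list for each library. Of the 84 peaks 49, 60 and 47 overlapped a peak in the lists of MG 1, 2 and 3, and 20, 39 and 5 in those of BMDM 1, 2 and 3. As shares of the 84 these were 58.3%, 71.4% and 56.0% in MG, where 51.7%, 73.7% and 53.8% of all peaks were listed. In BMDM they were 23.8%, 46.4% and 5.95%, where 34.7%, 54.5% and 17.9% of all peaks were listed. The length of a list goes with depth, so the lists show no change by themselves.

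In all 3 MG lists and no BMDM list were 6 of the 84 peaks (7.14%, against 5.08% of all peaks): the Sparc start site peak and a Sparc peak past the 3′ end, 2 Gpr34 peaks, the Fcrls peak in intron 6 and the Slc2a5 peak with the highest distal mean. In all 6 lists were 4 peaks (4.76%, against 16.8% of all peaks). They were the Olfml3 start site peak, the Rtn4rl1 intron peak at 15248 bp, the highest Crybb1 peak, and the Tmem119 peak at -4670 bp, so that the site that was lower in MG was still called as a peak in each MG library.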
